A study of Mus musculus with 6 samples.

Results

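Tcf7l2 and 9 further effector genes of canonical Wnt signalling were followed on 6 arrays of mouse hypothalamic RNA. The set holds Tcf7l2, Tcf7l1, Tcf7, Lef1, Ctnnb1, Axin1, Axin2, Apc, Lrp5 and Lrp6, which are 10 of the 37074 gene names on the array. A probe was taken when its gene name equalled 1 of these symbols, which gave 24 of 56605 probes. The genes were chosen by measured values of the GSK-J4 against vehicle contrast, because the probes of Tcf7l2 differ in it. The contrast is therefore given for them as a description with no p, and where counts of their probes past a threshold are quoted from the fit over all probes, they support nothing.

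The arrays hold RNA of male C57BL/6J mice with diet-induced obesity (DIO), fed a high-fat diet with 60 kcal% fat. GSK-J4 is a cell-permeable compound that blocks the histone H3K27 demethylases, among them Kdm6a. Each of the 3 GSK-J4 arrays carries RNA of a mouse given 30 mg kg-1, and each of the 3 vehicle arrays that of a mouse given the solvent at a dose of 0. The labels describe different mice at day 4 and state no age. The DIO state and the diet are shared by both groups, and lean mice are not part of these arrays.

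Canonical Wnt signalling runs from a secreted Wnt protein to a change of transcription through β-catenin. Without a ligand, a cytoplasmic complex built on Axin and Apc has β-catenin phosphorylated and degraded. Binding of a Wnt protein to Frizzled and the coreceptors Lrp5 or Lrp6 stops this, and β-catenin enters the nucleus and joins the TCF/LEF factors on DNA. Tcf7l2 is the family member best known for its role in thalamic and habenular neurons, in the maturation of oligodendrocytes and in the genetics of type 2 diabetes.

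Tcf7l2 is measured by 4 probes of 60 bases on the plus strand of chromosome 19 of mm9. They are printed because the difference between the groups depends on which of them is read. The first probe is A_55_P2143724 at chr19:55817272-55817331, the second is A_52_P146043 at chr19:55982975-55983034, the third is A_55_P2030160 at chr19:55994029-55994088 and the last is A_52_P566741 at chr19:56007586-56007645. Sequences run 5′ to 3′ and the last is given by its first 30 bases only.
A_55_P2143724: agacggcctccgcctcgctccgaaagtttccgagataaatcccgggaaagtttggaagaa
A_52_P146043: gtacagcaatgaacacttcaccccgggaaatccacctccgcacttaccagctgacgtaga
A_55_P2030160: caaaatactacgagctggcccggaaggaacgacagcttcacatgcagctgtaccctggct
A_52_P566741: gatttgtatgtagttttaatgtcacctata

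In the transcript records the files name, the probes start at base 727 of NM_001142923, base 1077 of NM_009333, base 1724 of NM_001142920 and base 3494 of NM_009333. The first 3 lie in the coding sequence, the third of them in that of the HMG box, the domain with which TCF/LEF proteins bind DNA, and the last lies in the 3′ untranslated part. The files name up to 4 transcripts for a probe and give no exon structure, so the probes were not assigned to isoforms. The GC content was 53.3% for the first and the second, 55% for the third and 35% for the last.

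The third probe, A_55_P2030160, had normalized log2 signals of 6.03, 5.88 and 6.03 on the vehicle arrays and 7.28, 6.75 and 8.01 on the GSK-J4 arrays. All GSK-J4 arrays lay above all vehicle arrays, and the spread was 0.63 (SD, n = 3) among the former against 0.09 (SD, n = 3) among the latter. The log2 difference, GSK-J4 minus vehicle, was 1.36 with a limma standard error of 0.31, a 2.57-fold higher signal. It ranged from 1.03 to 1.66 when 1 array was left out. In the table of log2 values that the authors deposited, the same difference was 1.36. Before normalization the signals of this probe overlapped, with 89.5 to 91.3 on the vehicle arrays and 78.7 to 168 on the GSK-J4 arrays. The GSK-J4 arrays were dimmer as a whole. Their 75th percentile of signal was 606 to 693, against 1140 to 1340 on the vehicle arrays.

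The last probe, A_52_P566741, had signals of 9.20, 8.93 and 9.06 on the vehicle arrays and 8.98, 8.87 and 9.08 on the GSK-J4 arrays. The groups overlapped, with a log2 difference of -0.09 (standard error 0.10). This is the probe with the highest mean signal of the gene, and it stands for Tcf7l2 wherever 1 probe per gene is used.

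The differences of the remaining Tcf7l2 probes lay between these. A_52_P146043 had signals of 4.89, 4.42 and 4.71 on the vehicle arrays and 4.93, 5.20 and 5.21 on the GSK-J4 arrays, a log2 difference of 0.44 (standard error 0.15) with no overlap. A_55_P2143724 had signals of 4.75, 5.02 and 4.78 against 5.27, 4.81 and 5.33, a log2 difference of 0.29 (standard error 0.17) with overlapping groups, and was well above background on 2 of the 3 GSK-J4 arrays. GSK-J4 replicate 3 was the highest GSK-J4 array on each of the 4 probes.

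**Figure D1:**
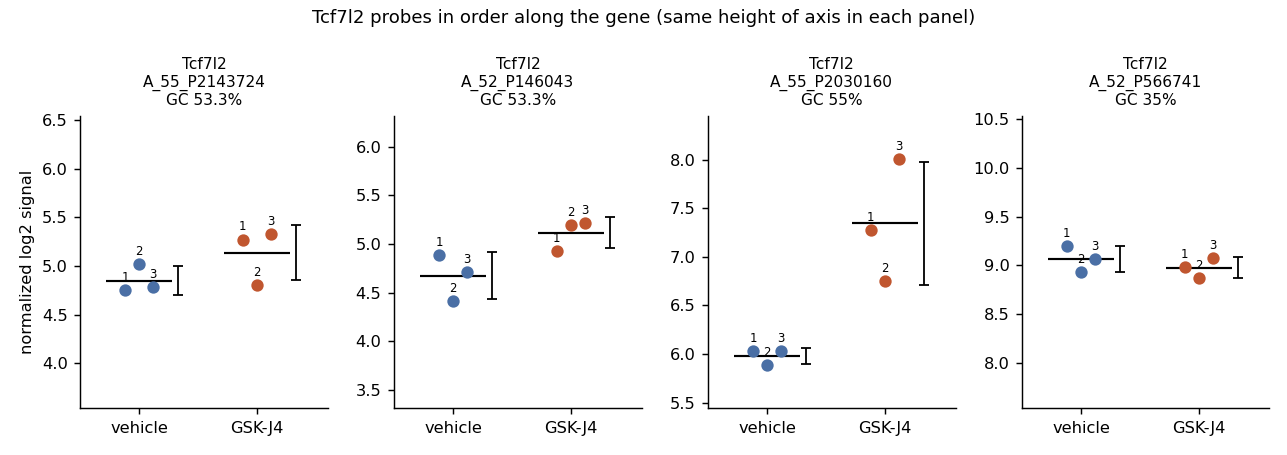
Normalized log2 signal of the 4 Tcf7l2 probes, in order along the gene, on the 3 vehicle and 3 GSK-J4 arrays. Points are arrays with their replicate number, lines are group means and bars are the SD, and the groups stand furthest apart on A_55_P2030160, by 1.36, and overlap on A_52_P566741.

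The differences of the 4 Tcf7l2 probes spanned 1.45 on the log2 scale, from -0.09 to 1.36. Across the 655 genes with 4 probes kept by the filter, Tcf7l2 among them, the median span was 0.73, and 71 genes (10.8%) had a span at least as wide as that of Tcf7l2. A wide span among the probes of a gene was thus shared with about 1 gene in 10 of this class.

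Differences on these arrays moved with the GC content of the probe over all genes. The 4501 kept probes with a GC content above 50% and up to 55% had a median log2 difference of 0.23, and 10.5% of them were higher by at least 1.5-fold with a limma p under 0.05 before adjustment, against 1.56% lower. For the 378 probes of 30% GC or less the median was -0.40, and 0.265% were higher and 24.9% lower. When the GC trend was removed within each array, the difference of A_55_P2030160 was 1.15 and that of A_52_P566741 was 0.07. The corrected differences of A_52_P146043 and A_55_P2143724 were 0.25 and 0.09. The standard error of the corrected A_55_P2030160 value was 0.30. In limma with adjustment, A_55_P2030160 was called higher before this correction and was not called after it. Tcf7l2 was chosen because its probes differ in this contrast, so nothing is read from the differences that remain. The part of GC content in the differences between these probes was not tested.

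**Figure D2:**
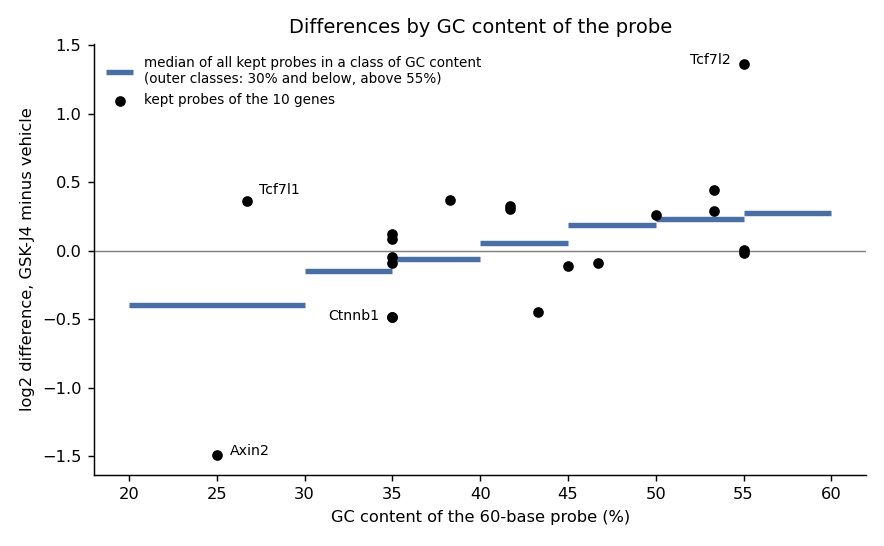
Log2 difference between the groups against the GC content of the probe in percent, with points for the kept probes of the 10 genes and lines for the median of all kept probes in each class of GC content. The medians run from -0.40 in the lowest class to 0.28 in the highest, and the Tcf7l2 probe at 1.36 and the Axin2 probe at -1.49 lie beyond the medians of their classes.

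Further facts of the arrays bear on every value. All vehicle arrays lie on slide 1 and in scan 1 and all GSK-J4 arrays on slide 2 and in scan 2, so slide, scan and treatment cannot be told apart. Of the probes, 62.8% to 63.6% were well above background on the vehicle arrays and 57.7% to 58.7% on the GSK-J4 arrays. The labelled tissue was read from 13 hypothalamic markers, of which Sim1, Otp and Nkx2-1, transcription factors of hypothalamic neurons, were well above background on none of the arrays and 6 were so on all 6. In bulk tissue, fewer cells of a type and less RNA per cell cannot be told apart.

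Among 17 markers of thalamus and habenula, where Tcf7l2 is abundant, 12 were well above background on all 6 arrays, while Gbx2, Gpr151 and Chrnb3 were so on none. Their summed signal ran from 12719 to 14178 on the vehicle arrays and from 14696 to 17413 on the GSK-J4 arrays, without overlap. Such sums are of signal that is not on the log scale, so bright markers weigh most. Single markers went both ways: of the 13 with a kept probe, 9 had a difference above 0 and 4 below. The 8 markers of newly formed oligodendrocytes, in which Tcf7l2 is also known to be high, summed to between 40014 and 44135 against 43438 and 48290, with overlap. The 7 astrocyte markers summed to between 52891 and 56336 against 58001 and 62155, and the hypothalamic list to between 3660 and 3892 against 4953 and 5531, each without overlap. Of the markers with a kept probe, 7 of newly formed oligodendrocytes had a difference above 0 and 1 below. Their median was 0.19, against 0.04 over all genes. Of the astrocyte genes, 4 were above 0 and 3 below. In the hypothalamic list 6 were above 0 and 1 below. The 8 choroid plexus markers summed to 201619 on vehicle replicate 1 and to between 15167 and 28425 on the other arrays. The part of these markers in the values of the 10 genes was not tested.

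Of the 24 probes of the 10 genes, 20 were kept because every array of 1 group or of both showed them well above background, and 18 of these were so on all 6 arrays. The exceptions, A_55_P2143724 of Tcf7l2 and A_52_P54176 of Axin2, were so on all vehicle arrays and on 2 of 3 GSK-J4 arrays. Of the 20 probes, 11 had a difference above 0 and 9 below, with a median of 0.04 against 0.02 over all kept probes. The groups did not overlap for 5 probes higher and 3 lower in GSK-J4, while over all kept probes this held for 24.5% higher and 21.1% lower.

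In the fit over all 34443 kept probes, limma with Benjamini-Hochberg adjustment put 3 probes of the set past a threshold of 0.05 as higher and 2 as lower, where 8.38% of all kept probes were called higher and 8.4% lower. At the thresholds of the study's methods, a 1.5-fold change with p up to 0.05 unadjusted, 1 was higher, A_55_P2030160 of Tcf7l2, and 1 lower, A_52_P54176 of Axin2. Over all kept probes these shares were 4.8% higher and 7.85% lower. Of the 5 probes past the adjusted p, 0 were past it without vehicle replicate 1, 2 or 3, and 2, 3 and 2 without GSK-J4 replicate 1, 2 and 3. Of all kept probes, 2, 1 and 1 were called higher and 8, 12 and 4 lower without vehicle replicate 1, 2 and 3. Without GSK-J4 replicate 1, 2 and 3 these were 979, 2074 and 1536 higher and 1428, 2078 and 2483 lower. Since the contrast was used in choosing the genes, nothing is read from these counts.

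**Figure D3:**
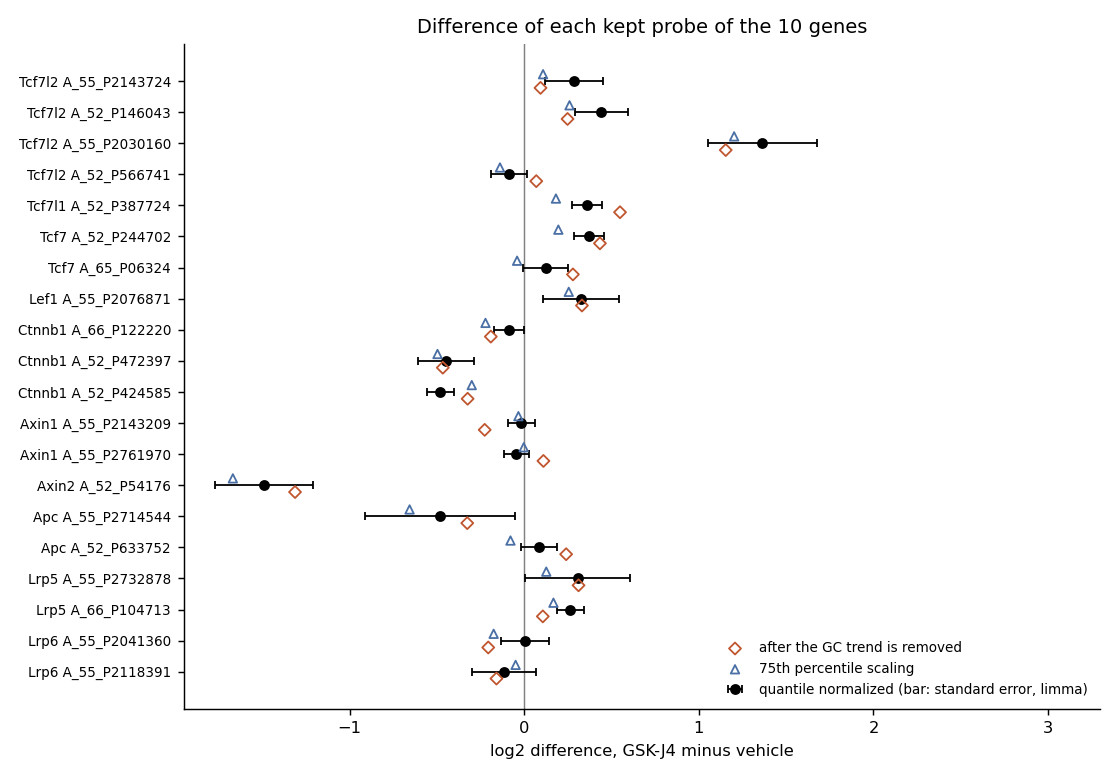
Log2 difference, GSK-J4 minus vehicle, of the 20 kept probes of the 10 genes, ordered along each gene. Circles with bars are the quantile-normalized value and its limma standard error, triangles the value after scaling to the 75th percentile and diamonds the value with the GC trend removed, and most probes lie within 0.5 of 0, with the probes at 1.36 for Tcf7l2 and -1.49 for Axin2 apart from the rest.

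The other TCF/LEF factors bind the same DNA motif as Tcf7l2. Tcf7l1, known mainly as a repressor, has 1 probe, A_52_P387724, at chr6:72576377-72576436 on the minus strand. Its signals were 6.17, 6.32 and 6.08 on the vehicle arrays and 6.54, 6.53 and 6.58 on the GSK-J4 arrays. The groups did not overlap, and the log2 difference was 0.36 (standard error 0.09), or 0.18 after scaling to the 75th percentile. This probe has a GC content of 26.7%, a class with a median difference below 0, and with the GC trend removed its difference was 0.55.

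Tcf7, the factor first described in T cells, has 3 probes on the minus strand of chromosome 11. A_52_P244702, at chr11:52066114-52066173, had signals of 5.16, 5.13 and 5.02 on the vehicle arrays and 5.39, 5.44 and 5.59 on the GSK-J4 arrays, a log2 difference of 0.37 (standard error 0.09) without overlap. The difference was 0.20 after scaling to the 75th percentile and 0.14 after normexp background correction. A_65_P06324, at chr11:52066008-52066067, overlapped between the groups, with a difference of 0.12 (standard error 0.13) that turned to -0.04 after scaling to the 75th percentile. The third probe, A_55_P2109633, did not reach a signal well above background on any array.

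Lef1, an activating partner of β-catenin, has 1 kept probe, A_55_P2076871, at chr3:130926200-130926259 on the plus strand. Its signals were 8.92, 8.64 and 8.38 on the vehicle arrays and 9.30, 8.61 and 9.01 on the GSK-J4 arrays. The groups overlapped, with a log2 difference of 0.32 (standard error 0.22), which was 0.16 without GSK-J4 replicate 1, 0.19 without vehicle replicate 3 and 0.51 without GSK-J4 replicate 2. All kept probes of Tcf7l1, Tcf7 and Lef1 thus had a difference above 0 after quantile normalization, with the sign of A_65_P06324 of Tcf7 turning under 75th percentile scaling.

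Ctnnb1, the gene of β-catenin, has 3 kept probes on the plus strand of chromosome 9, all with a difference below 0. A_52_P424585, at chr9:120869274-120869333, had signals of 13.19, 13.21 and 13.15 on the vehicle arrays and 12.60, 12.72 and 12.78 on the GSK-J4 arrays. The groups did not overlap, and the log2 difference was -0.48 (standard error 0.08), a signal 0.717 times that of vehicle. A_52_P472397, at chr9:120865275-120865334 in the transcript ENSMUST00000154687, had signals of 9.45, 9.53 and 9.69 against 8.77, 9.26 and 9.28, a difference of -0.45 (standard error 0.16) without overlap. A_66_P122220, at chr9:120860495-120860554 in the coding part, had signals of 8.28, 8.13 and 8.20 against 8.18, 8.17 and 8.0, which overlapped, with a difference of -0.09 (standard error 0.09).

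The Ctnnb1 probes are printed to show how their base composition differs, with a GC content of 35% for A_52_P424585 and 46.7% for A_66_P122220. The first is given by its first 30 bases.
A_52_P424585: ttctaagaaccgagtaatggtgtagaacac
A_66_P122220: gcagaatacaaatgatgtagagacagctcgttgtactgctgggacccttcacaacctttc
With the GC trend removed the differences were -0.32 for A_52_P424585, -0.47 for A_52_P472397 and -0.19 for A_66_P122220. All 3 thus stayed below 0, and they lay closer to each other than before.

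Axin2 is both a scaffold of the complex that degrades β-catenin and one of the most widely used target genes of the pathway. Its kept probe, A_52_P54176, at chr11:108811980-108812039 on the plus strand, starts at base 4142 of NM_015732 and has a GC content of 25%. The first 30 bases are given because this probe had the lowest GC content of the set.
A_52_P54176: ttctactttagactgtaaattatgcattat
Its signals were 6.38, 6.51 and 6.38 on the vehicle arrays and 5.53, 4.40 and 4.86 on the GSK-J4 arrays. The groups did not overlap, and 1 of the GSK-J4 values was not well above background. The log2 difference was -1.49 (standard error 0.28), a signal 0.356 times that of vehicle, and it ranged from -1.79 to -1.23 when 1 array was left out.

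The size of the Axin2 difference moved with the processing. It was -1.67 after scaling to the 75th percentile, -1.31 with the GC trend removed and -0.67 after normexp background correction, which lifts dim values. The second Axin2 probe, A_66_P134405, at chr11:108803927-108803986 in the coding part, did not reach a signal well above background on any array and gave no second reading of the gene.

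**Figure D4:**
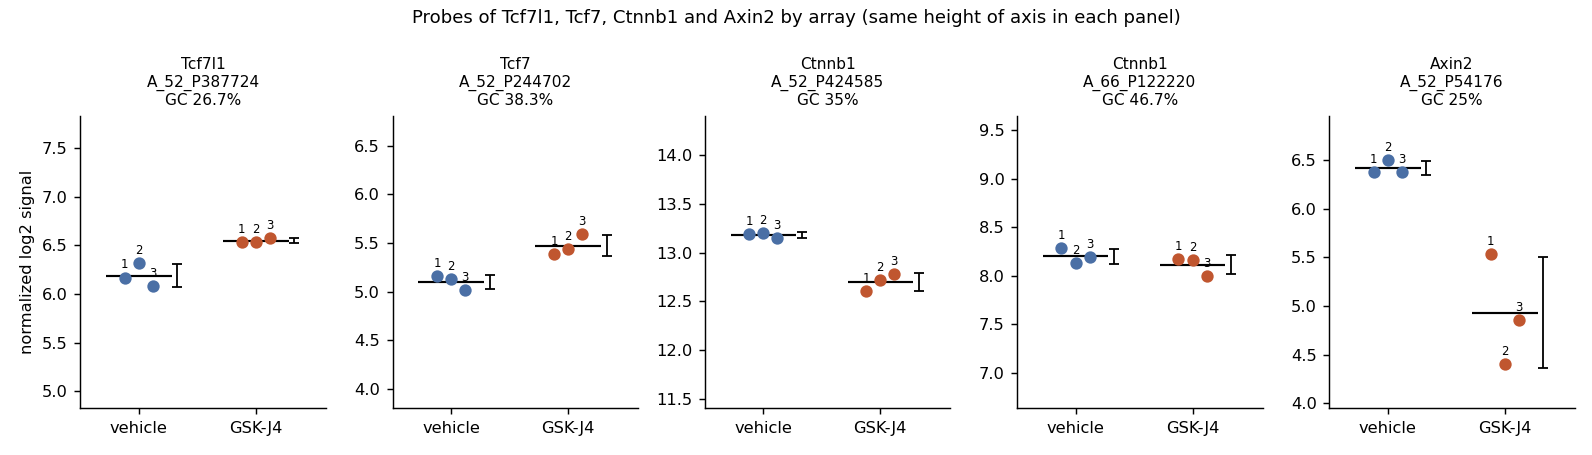
Normalized log2 signal of probes of Tcf7l1, Tcf7, Ctnnb1 and Axin2 on the 3 vehicle and 3 GSK-J4 arrays, with points for arrays, lines for group means and bars for the SD. The groups stand apart on A_52_P387724, A_52_P244702, A_52_P424585 and A_52_P54176 and overlap on A_66_P122220 of Ctnnb1.

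On every kept probe of the other scaffolds of the degradation complex the groups overlapped. The Axin1 probes A_55_P2143209 and A_55_P2761970 had log2 differences of -0.02 (standard error 0.08) and -0.05 (standard error 0.07). For Apc, the large scaffold lost in many colon tumours, A_52_P633752 gave 0.08 (standard error 0.11). The second Apc probe, A_55_P2714544, had signals of 6.96, 6.58 and 6.91 on the vehicle arrays and 5.70, 5.98 and 7.32 on the GSK-J4 arrays, a difference of -0.48 (standard error 0.43) in which GSK-J4 replicate 3 lay above all vehicle arrays. The difference was -0.97 without that array, and -0.17 and -0.31 without GSK-J4 replicates 1 and 2.

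The coreceptors Lrp5 and Lrp6 are closely related single-pass receptors. For Lrp5, A_66_P104713 had signals of 8.28, 8.43 and 8.45 on the vehicle arrays and 8.65, 8.66 and 8.64 on the GSK-J4 arrays, a log2 difference of 0.26 (standard error 0.08) without overlap, and 0.11 with the GC trend removed. A_55_P2732878, placed in the cDNA AK081025, gave 0.31 (standard error 0.30) with overlap, and from 0.06 without GSK-J4 replicate 3 to 0.53 without vehicle replicate 1. Both Lrp6 probes overlapped between the groups, with differences of 0.00 (standard error 0.14) and -0.11 (standard error 0.18). Without vehicle replicate 1, which was the highest array on both, they were 0.14 and 0.07.

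Of the 7 genes with several kept probes, 3 had probes that differed in sign, namely Tcf7l2, Apc and Lrp6. Among these the negative probe of Tcf7l2 and both probes of Lrp6 lay within 1 standard error of 0, as did the positive probe of Apc. Without vehicle replicate 1, both Lrp6 probes were above 0. Lrp5, Tcf7, Axin1 and Ctnnb1 had kept probes of 1 sign each after quantile normalization.

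The rest of the pathway was read from 132 further genes in 6 lists, with the brightest kept probe standing for each gene. Of these, 113 had a kept probe, and limma, adjusted over all 22117 genes with a threshold of 0.05, called 8 higher and 2 lower, where 9% of all genes were called higher and 7.77% lower. The median log2 difference of the 113 genes was 0.06 against 0.04 over all genes. Without vehicle replicate 1, 2 or 3, limma called 0 of these 10 genes, and without GSK-J4 replicate 1, 2 or 3 it called 4, 6 and 5 of them. Of all kept probes, it called 2, 1 and 1 higher and 8, 12 and 4 lower without each vehicle array. With p up to 0.05 before adjustment and all arrays, limma had 20 of the 113 genes higher and 12 lower. Over all 34443 kept probes, 6703 were higher and 5861 lower. Without each vehicle array, 17, 12 and 17 of the genes were higher and 7, 4 and 5 lower. Over all kept probes these counts were 5591, 5096 and 5305 higher and 4850, 4498 and 4403 lower. The unadjusted counts of each list below stand beside the 6703 and 5861 of all kept probes. In each list the methods' t-test is given with equal variances. After adjustment that test called 6 of the 113 genes higher and 3 lower, and 1823 of all kept probes higher and 1473 lower. With unequal variances, added after the data were seen, the methods' t-test called 0 of the 113 genes after adjustment, and 14 were higher and 12 lower unadjusted. Of all kept probes, 5169 were higher and 4130 lower unadjusted in that test. A gene held by several lists was counted in each.

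Of the 26 ligands and their helpers, 18 had a kept probe, 3 rose and 0 fell (limma, adjusted p up to 0.05), and 15 were not called. The median log2 difference was 0.30, the highest of the 6 lists, against 0.04 over all genes. Of the 18 differences 15 were above 0, and of the 113 genes of all lists 68 were. With limma p up to 0.05 before adjustment, 8 were higher and 0 lower, and the methods' t-test after adjustment called 3 higher and 0 lower, namely Wnt3, Wnt7b and Wnt7a but not Wnt4. Wnt4 had signals of 9.43, 9.48 and 9.98 on the vehicle arrays and 10.45, 10.37 and 10.33 on the GSK-J4 arrays, a log2 difference of 0.75 (limma adjusted p = 0.0343). Wnt3 rose by 0.71 (limma adjusted p = 0.0184). Wnt7b, a ligand of the brain vasculature, rose by 0.67 (limma adjusted p = 0.0147), and its other probe was called higher too, by 0.50. With the GC trend removed, the differences of Wnt4, Wnt3 and Wnt7b were 0.65, 0.55 and 0.46.

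Of the 20 other receptors and their partners, 19 had a kept probe, 1 rose, 0 fell and 18 were not called, with a median of -0.03. Unadjusted, 4 were higher and 2 lower in limma, and the methods' t-test after adjustment called 1 higher and 0 lower. The Frizzled receptor Fzd9 rose by 0.51 (limma adjusted p = 0.024). The values of Kremen2, which binds the inhibitors of the Dkk family, and of Fzd2 were 0.51 and 0.37, with limma adjusted p of 0.0697 and 0.0637.

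Of the 16 secreted inhibitors, 11 had a kept probe, 1 rose, 0 fell and 10 were not called, with a median of 0.10. Unadjusted, limma had 1 higher and 1 lower, and the methods' t-test after adjustment called 0. Wif1, which binds Wnt proteins outside the cell, rose by 0.61 (limma adjusted p = 0.0344). Sostdc1, abundant in choroid plexus, had a signal of 11.78 on vehicle replicate 1 and of 7.53 to 7.73 on the other arrays, and its log2 difference of -1.43 (limma adjusted p = 0.409) became -0.06 without that array. Choroid plexus markers summed to 201619 on vehicle replicate 1 and to between 15167 and 28425 on the other arrays. Apcdd1 had a value of 0.23 (limma adjusted p = 0.475), which was 0.04 without vehicle replicate 1 and 0.10 without GSK-J4 replicate 3. Its other kept probes gave -0.02 and 0.07.

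All 30 cytoplasmic transducers had a kept probe, 2 rose, 1 fell and 27 were not called, with a median of 0.02. Unadjusted, 3 were higher and 5 lower in limma, and the methods' t-test after adjustment called 1 higher, Dvl3, and 0 lower. Dvl3, which relays the signal from Frizzled, rose by 0.84 (limma adjusted p = 0.0121) and Frat2, a binder of the kinase Gsk3, by 0.59 (limma adjusted p = 0.0259). Their probes have a GC content of 76.7% and 71.7%, and with the GC trend removed the differences were 0.40 and 0.20. The other kept probe of Dvl3 gave 0.63 and was not called. Apc2, the neuronal relative of Apc, fell by 0.87 (limma adjusted p = 0.0258) on its brighter probe, from 15.31, 15.21 and 15.16 on the vehicle arrays to 14.43, 14.61 and 14.03 on the GSK-J4 arrays, while its other probe gave 0.19 and was not called.

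All 24 nuclear cofactors had a kept probe, 0 rose, 1 fell and 23 were not called, with a median of 0.06. Unadjusted, 2 were higher and 3 lower in limma, and the methods' t-test after adjustment called 1 higher and 3 lower. Ctbp2, a corepressor, fell by 0.32 (limma adjusted p = 0.03), or by 0.16 with the GC trend removed. Crebbp, a histone acetyltransferase that β-catenin recruits, had a value of 0.51 (limma adjusted p = 0.326), which was 0.12 without vehicle replicate 1. Its other kept probes gave -0.87 and 0.34, neither of them called. Cby1, an antagonist of β-catenin, had 0.49 (limma adjusted p = 0.24), which was 0.21 without vehicle replicate 3.

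Of the 23 target genes of the pathway, other than Axin2, 17 had a kept probe, 1 rose, 0 fell and 16 were not called, with a median of 0.08 and 12 differences above 0. Unadjusted, limma had 2 higher and 1 lower and the methods' t-test after adjustment called 0. Ppard, a nuclear receptor, rose by 0.48 (limma adjusted p = 0.0426), from 10.15, 10.16 and 10.20 on the vehicle arrays to 10.77, 10.42 and 10.77 on the GSK-J4 arrays. The values of Cd44, a cell surface receptor, and Fst, which encodes follistatin, were 0.81 and 0.63, with limma adjusted p of 0.203 and 0.0779.

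**Figure D5:**
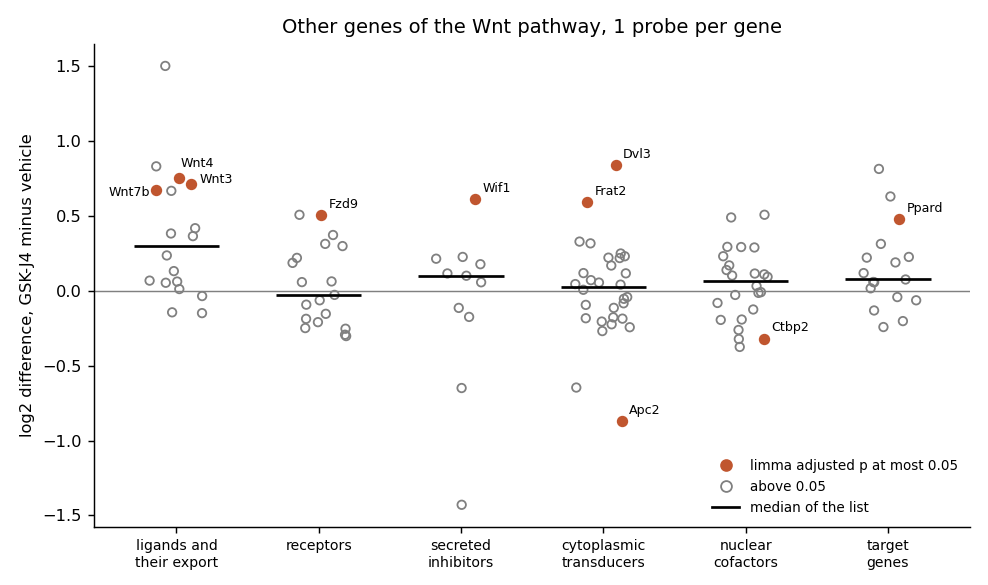
Log2 difference, GSK-J4 minus vehicle, of 113 further genes of the Wnt pathway in 6 lists, with 1 probe per gene. Filled points passed an adjusted p of 0.05 in limma over all genes and carry their names, open points did not, and the lines mark the median of each list, from -0.03 for the receptors to 0.30 for the ligands.

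The genes whose pattern was most like that of Tcf7l2 were searched for with its brightest probe, after the group means were subtracted. Over the 6 arrays and 20201 genes, Atp6v0c, Lmf1, Galt, Dnajb2 and the transcript HQ258995 had the highest Pearson correlations, all of 0.996 or above. They share 6 arrays and 2 subtracted means, which leaves few independent points, so the order is a description of these arrays.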

How the data were processed

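Total RNA of mouse hypothalamus was hybridized to 6 one-colour Agilent arrays. The authors deposited the intensity of every spot, background-corrected by Agilent Feature Extraction 10.7.1.1, with detection and outlier flags, and a table of log2 values that their methods describe as quantile normalized in GeneSpring. Probe positions are those of the files, on mm9.

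Control and outlier-flagged spots were left out, log2 values were averaged per probe, and arrays were brought to a common distribution by quantile normalization. A probe was kept when all arrays of 1 group or of both had it well above background, which left 34443 of 56605, and the kept probe with the highest mean stood for each of 22117 genes. GSK-J4 was compared with vehicle with limma 3.58.1 in R 4.3.3, two-sided, with Benjamini-Hochberg adjustment over all kept probes or genes. The script was tested on simulated data. Figures were drawn with matplotlib 3.10.9 in Python 3.11.15.

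A lowess trend on probe GC content (span 0.3) was removed within each array as an alternative. The others were 75th percentile scaling, normexp with an offset of 50, the deposited table, other filters, the methods' t-test with equal and, added after the data were seen, unequal variances, the replicate number as a block and leaving out each array. Arrays within a group correlated at 0.978 to 0.995, and the 3 arrays per group limit the precision.

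The genes, lists and tests were chosen with earlier results of these data known. All probes of the 10 genes are reported, those of Tcf7l2 and those past a call rule array by array. In each pathway list, up to 3 called genes in each direction, or otherwise up to 2 with the largest difference, were named if well above background on all arrays. The labels give the time as day 4, and the methods describe a longer course of treatment.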

Additional observations from a re-analysis of the deposited data

How the results depend on the processing

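For the probes of the 10 genes, which were chosen by this contrast, counts past a threshold are listed as values and nothing is read from them. Over single probes and alternatives, 247 differences stayed on their side of the threshold and, where not past it, within the replicate spread, 51 passed it only in the values reported above, 1 (Apc A_55_P2714544, without GSK-J4 replicate 3) only under the alternative, and 19 moved further, and for no probe past the threshold did the sign turn. The difference of the Tcf7l2 probe A_55_P2030160 ran from 0.86 after normexp to 1.66 without GSK-J4 replicate 2. Counts of calls depended on the processing, and the cause was not tested except where fewer arrays or other probes were used by construction.

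Under 75th percentile scaling, 1 probe of the 10 genes was called higher and 2 lower, and 13 pathway genes were called higher and 4 lower. Of all kept probes, 4033 were called higher and 4059 lower at this setting. With no filter on dim probes, limma called 0 probes of the 10 genes higher and 1 lower. It called 1805 of all probes higher and 1976 lower, and 5 pathway genes higher and 2 lower. At an unadjusted p of at most 0.05, 5 probes of the set were higher and 3 lower. Over all 56605 probes, 8018 were then higher and 6804 lower. With probes well above background on all 6 arrays, 1 of the set was called lower and 0 were lower at the methods' thresholds, since the Axin2 probe was left out. Of all probes with this filter, 3362 were called higher and 2793 lower. With the GC trend removed, 2 probes of the set were called higher and 1 lower, and 7 pathway genes higher and 1 lower. Of all kept probes, 1576 were then called higher and 1996 lower. With equal variances, the methods' t-test after adjustment called 0 higher and 1 lower of the set, 1823 higher and 1473 lower of all probes, and 6 higher and 3 lower of the pathway genes. The t-test with unequal variances, which the study's statistics section describes, was added after the data were seen. In the same order it called 0 and 0, 34 and 25, and 0 and 0, and 0 probes of the set were higher at the methods' thresholds. Unadjusted, it had 3 probes of the set higher and 2 lower. Over all 34443 kept probes it had 5169 higher and 4130 lower. With the mean of all probes of a gene 4 pathway genes were called lower and 8 higher, and with any probe 12 higher and 9 lower.

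Same-numbered arrays of the groups deviated together with correlations of 0.007, 0.026 and 0.082. Whether the replicate number pairs the arrays in any way was not tested. With the replicate block, limma called 0 of the probes of the 10 genes, 0 of all probes and 0 pathway genes in either direction, with or without the GC trend. At an unadjusted p of at most 0.05 the replicate block left 4 probes of the set higher and 3 lower, and 15 pathway genes higher and 4 lower. Over all 34443 kept probes it left 5768 higher and 5311 lower.

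Leaving out 1 array gave 0 to 1 probes of the set called higher and 0 to 2 lower, 1 higher and 1 to 2 lower at the methods' thresholds, 1 to 2074 of all probes higher and 4 to 2483 lower, and 0 to 7 pathway genes higher and 0 to 1 lower. Signal over background was lower on the GSK-J4 arrays, which limits what dim probes can show.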

Other observations

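The Lef1 probe A_55_P2717528, placed in the transcript ENSMUST00000132737 at chr3:130890941-130891000, was well above background on GSK-J4 replicate 2 only. Its normalized log2 signal was 5.53 on that array and between 1.90 and 2.09 on the other 5. The Lef1 probe A_55_P2717523, placed in ENSMUST00000136147 at chr3:130820246-130820305, stayed below the detection flag on every array.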
